A study of Mus musculus with 18 samples.

Results

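The PI3K, Akt and Foxo pathway is represented here by 9 genes: Pik3cd and Pik3r1, which encode subunits of phosphoinositide 3-kinase (PI3K), its inhibitor Pik3ip1, the phosphatase genes Inpp5d and Phlpp1, the kinase genes Akt1 and Akt2, and the transcription factor genes Foxo1 and Foxo3. They were chosen by name, and each was matched to the array's probe sets that carry that single gene symbol. This gave 29 of the 45101 probe sets, for 9 of the 18193 genes so matched. Each gene is described by its probe set with the highest mean over the 18 arrays, and its other probe sets served as a check. All 9 genes passed the filter on dim signals, as did 12258 genes in all.

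In T cells, antigen receptor, CD28 and interleukin-2 signals activate PI3K, which makes the membrane lipid PIP3 and so recruits and activates the kinase Akt. Akt phosphorylates Foxo proteins and keeps them out of the nucleus, where they otherwise drive genes of lymphoid homing, quiescence and survival. Foxo proteins are also known to act in the development and function of regulatory T cells, and much of this pathway is regulated on proteins, which arrays of RNA do not measure.

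The study hybridised RNA of CD4 T cells to 18 Affymetrix M430v2 arrays, 3 for each of 6 groups: CD25+ cells (Treg) and CD25- cells (Tconv) of fat, thymus and lymph node. Fat cells came from male C57BL/6 mice aged 25 to 35 weeks in pools of 8 to 10 mice per array. Thymus cells came from BDC2.5/NOD mice, which carry a transgenic T cell receptor, aged 4 to 6 weeks, and lymph node cells from C57BL/6 mice aged 32 to 36 weeks, both in pools of 3 to 6 mice. The sort took CD4+ cells without B220, CD11b or CD8a, and in fat required TCRb as well, and thymus cells were depleted of CD8a+ cells before the sort. Errors therefore measure the spread between pools of mice. Thymus differs from lymph node in strain and age as well as in tissue, so their levels are given side by side without a test.

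The sort was visible in the transcripts: all 9 T cell markers lay above the dim filter in every group, and all 5 Treg markers, Foxp3 and Ctla4 among them, were higher in Treg than in Tconv in each of the 3 tissues. Il2ra, one of the 5, encodes the sort marker CD25, and Foxp3 and Il2ra lay below the filter in Tconv of thymus and lymph node. The deposited medians of the 6 fat arrays lay between 76.9 and 82.2, and those of the other 12 between 57.9 and 63.0, so all 18 arrays were quantile-normalized together, and intensities below are on that scale. Changes are log2 differences from limma with their SE, and calls are made where the p adjusted over all 12258 genes is under 0.05. Within a tissue, Treg and Tconv arrays of the same number varied together, so a value with the pair as a block is added where it changes a call.

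The 9 genes differed widely in how much they varied over the 6 groups. The highest group mean of Pik3ip1 was 8.58 times its lowest, a range of 3.10 on the log2 scale that exceeded the range of 96.1% of the genes tested. Foxo1 followed with 1.77 (above 88% of genes) and Phlpp1 with 1.47 (above 83.1%). The other 6 genes ranged between 0.30 for Akt2 and 0.86 for Pik3r1, and the median over all genes was 0.67. The plot of intensities by array shows these 3 genes parting the groups and the Akt genes lying nearly level.

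**Figure D1:**
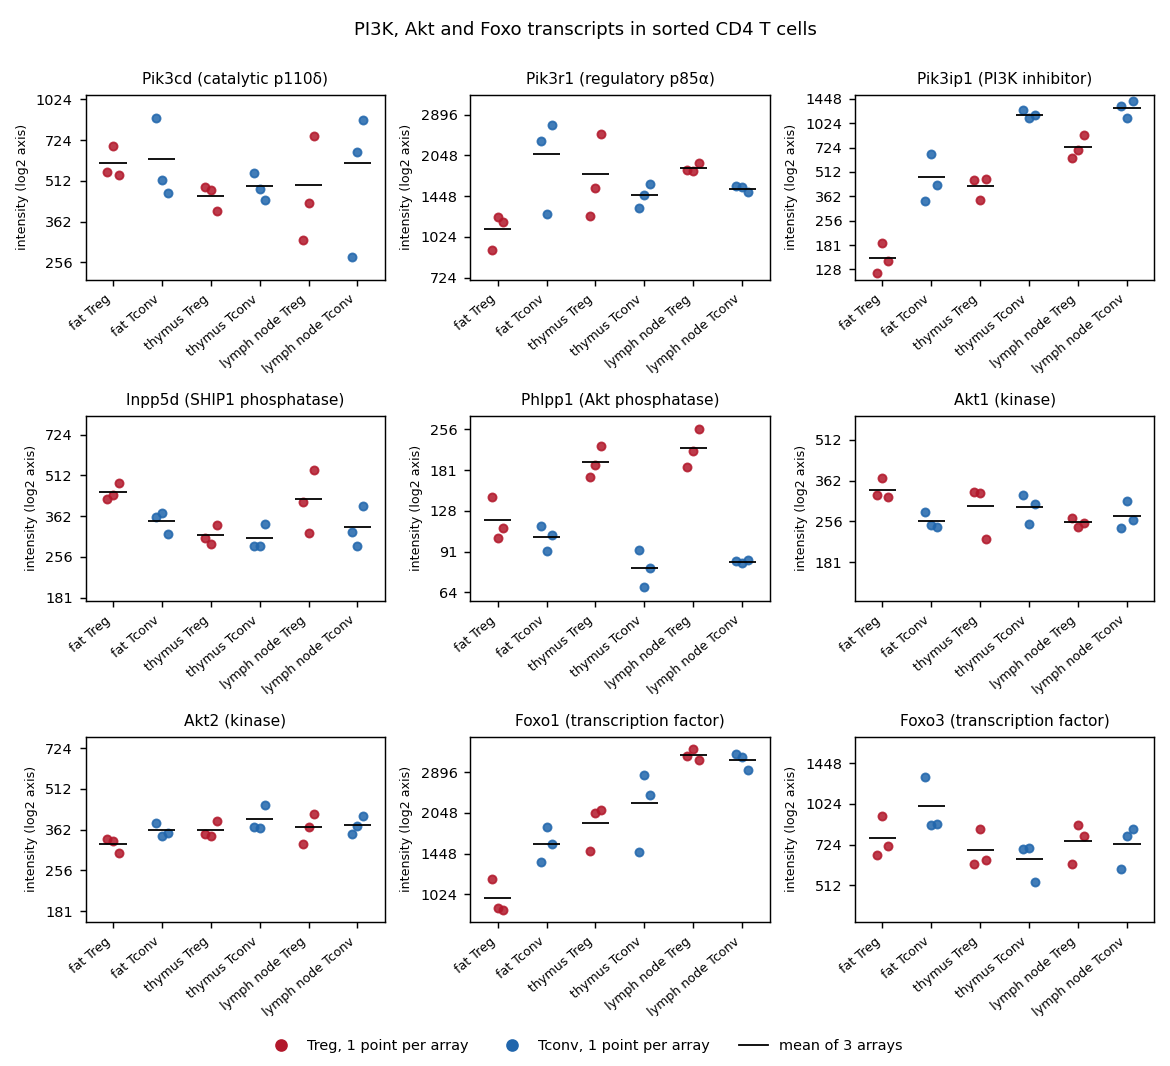
Intensity of the 9 genes on each of the 18 arrays (log2 axis, its range set per gene), with fat, thymus and lymph node in turn and Treg left of Tconv. Points are arrays and bars are means of 3 arrays; Pik3ip1 lies between 121 and 186 in fat Treg and between 1108 and 1402 in lymph node Tconv.

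Because Pik3ip1, Foxo1 and Phlpp1 carry most of the pattern, their promoters are shown, from 250 bases before to 50 after the start of the gene, as given by RefSeq for mouse build GRCm38.p6. Capitals mark matches, on either strand, to the Foxo motif (TGTTTNC), the GC box (GGGCGG), the CCAAT box, spelled by its name, or the AP-1 motif (TGANTCA). The lines give Pik3ip1 at chr11:3330481-3330780, Foxo1 at chr3:52268087-52268386 and Phlpp1 at chr1:106171619-106171918, all on the plus strand.
Pik3ip1: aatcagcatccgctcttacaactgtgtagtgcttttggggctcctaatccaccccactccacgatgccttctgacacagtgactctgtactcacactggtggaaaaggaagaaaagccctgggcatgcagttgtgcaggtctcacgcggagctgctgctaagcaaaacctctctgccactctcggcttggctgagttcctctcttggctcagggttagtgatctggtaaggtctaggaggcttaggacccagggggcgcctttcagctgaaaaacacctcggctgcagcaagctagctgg
Foxo1: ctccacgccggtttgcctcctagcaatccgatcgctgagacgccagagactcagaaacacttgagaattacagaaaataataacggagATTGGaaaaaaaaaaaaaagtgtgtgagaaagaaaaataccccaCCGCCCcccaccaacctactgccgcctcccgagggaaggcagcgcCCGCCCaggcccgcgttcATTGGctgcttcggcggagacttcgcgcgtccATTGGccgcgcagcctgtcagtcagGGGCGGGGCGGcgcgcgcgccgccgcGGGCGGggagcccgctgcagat
Phlpp1: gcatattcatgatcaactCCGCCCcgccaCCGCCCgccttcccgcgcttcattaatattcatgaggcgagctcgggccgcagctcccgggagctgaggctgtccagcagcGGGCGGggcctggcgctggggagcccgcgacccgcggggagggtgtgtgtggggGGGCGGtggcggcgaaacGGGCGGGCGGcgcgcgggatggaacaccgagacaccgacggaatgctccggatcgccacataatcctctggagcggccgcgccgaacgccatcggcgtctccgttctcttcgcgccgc
The Pik3ip1 window held none of the 4 motifs and had a GC content of 54.7%. The Foxo1 window held 5 matches to the GC box and 3 to the CCAAT box, with a GC content of 61.3%, and the Phlpp1 window held 6 GC boxes, with a GC content of 70.7%. Of 32851 promoters of the same length, 20.5% held the Foxo motif, 35.7% the GC box, 37.4% the CCAAT box and 7.81% the AP-1 motif. Over all 16 promoters listed for the 9 genes, 5 held the Foxo motif and 8 the GC box. A match describes the letters of this window, and its absence says nothing about the factor.

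The first set of comparisons asks how Treg differ from Tconv within a tissue. Pik3ip1 was lower in Treg of all 3 tissues, Phlpp1 was higher in Treg of thymus and lymph node, and Pik3r1 and Foxo1 were lower in Treg of fat. In fat, 0 of the 9 genes were higher and 3 were lower, where 6.87% of all genes tested were called higher and 5.89% lower. In thymus, 1 was higher and 1 lower (all genes 3.38% and 2.11%), and in lymph node again 1 and 1 (all genes 3.25% and 1.33%). The median change of the 9 genes was -0.17 in fat, -0.004 in thymus and 0.04 in lymph node, and that of all genes was -0.001 in fat, -0.02 in thymus and -0.03 in lymph node. In fat 4 of the 9 had an unadjusted p under 0.05, the fourth being Akt1. How many of all genes had such a p was not counted, here or in the comparisons below. The 3 comparisons share no arrays, but they share 1 estimate of spread per gene.

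**Figure D2:**
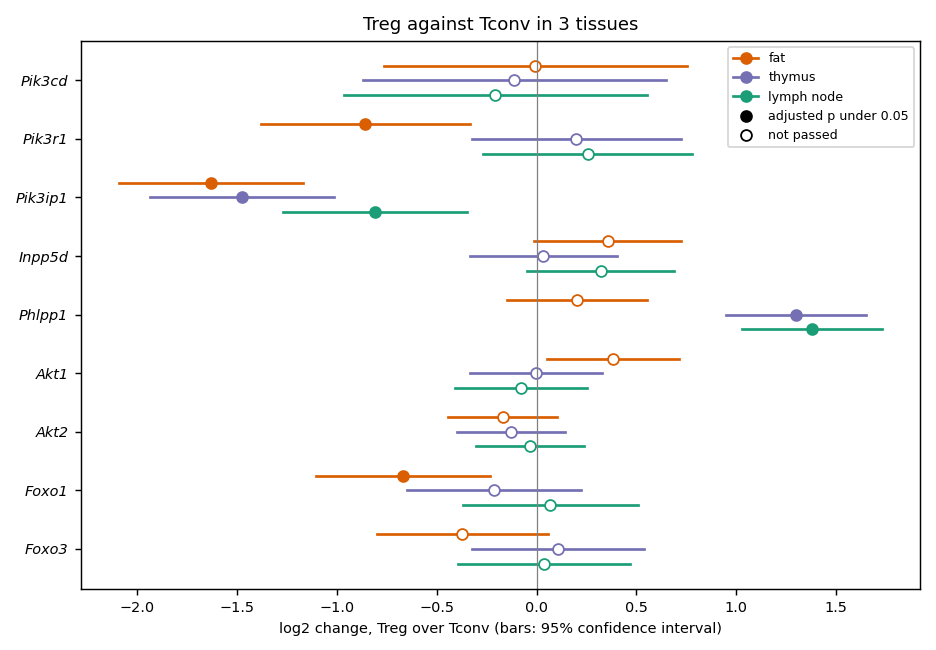
Log2 change of Treg over Tconv with its 95% confidence interval for each gene in fat, thymus and lymph node (filled points: adjusted p under 0.05). Pik3ip1 lies left of 0 in all 3 tissues, and Phlpp1 lies at 1.30 in thymus and 1.38 in lymph node but at 0.20 in fat.

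Among the PI3K genes, Pik3ip1 had the largest differences. It encodes a transmembrane protein that binds the catalytic subunit of PI3K and restrains its activity. In fat it had 121, 186 and 143 intensity units in Treg, against 338, 661 and 426 in Tconv. In thymus it had 454, 341 and 466 in Treg, against 1233, 1098 and 1148 in Tconv. In lymph node it had 623, 701 and 864 in Treg, against 1309, 1108 and 1402 in Tconv. The 3 Treg arrays lay below the 3 Tconv arrays in every tissue. The change was -1.63 ± 0.22 in fat (adjusted p = 4.04e-05), -1.475 ± 0.22 in thymus (adjusted p = 0.000334) and -0.81 ± 0.22 in lymph node (adjusted p = 0.0413). Within pairs it ran from -1.83 to -1.48 in fat, from -1.69 to -1.30 in thymus and from -1.07 to -0.66 in lymph node.

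The lymph node call of Pik3ip1 was the least firm of the 3. Its adjusted p was 0.086 on the deposited scale, 0.138 with arrays centred on their medians and 0.0515 without the dim filter, and 0.00102 with the pair as a block. It was also lost without lymph node Treg replicate 1 (0.185) or 2 (0.135) and without lymph node Tconv replicate 1 (0.127), 2 (0.0578) or 3 (0.171). Its other probe set gave -1.445 in fat, -1.57 in thymus and -1.19 in lymph node, without overlap of the groups in any tissue.

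The order of the 6 levels of Pik3ip1 ran from fat Treg (150 ± 32.7, SD, n = 3 arrays) through thymus Treg (420.5 ± 69.0), fat Tconv (475 ± 167), lymph node Treg (729 ± 123) and thymus Tconv (1159 ± 68.1) to lymph node Tconv (1273 ± 150). Fat Treg lay below every array of all other groups. The neighbours thymus Treg and fat Tconv, fat Tconv and lymph node Treg, and the Tconv of thymus and lymph node overlapped and did not differ beyond their spread.

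Pik3r1 encodes the regulatory subunit p85α, which stabilises the catalytic subunit and recruits it to receptors. In fat it had 919, 1207 and 1161 in Treg, against 2318, 1248 and 2653 in Tconv, so the groups did not overlap but 1 Tconv array lay close to the Treg arrays. Its change was -0.86 ± 0.25 (adjusted p = 0.0287), with -1.34, -0.05 and -1.19 in the 3 pairs. The adjusted p was 0.0994 in a fit of the 6 fat arrays alone, and the call was lost without fat Treg replicate 1 (0.126) or 3 (0.0583) or fat Tconv replicate 1 (0.0948) or 3 (0.163). In thymus and lymph node its changes were 0.20 ± 0.25 (adjusted p = 0.815) and 0.26 ± 0.25 (adjusted p = 0.857). Both other probe sets above the filter were also lower in fat Treg, by -1.58 and -0.86, with no overlap.

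Pik3cd encodes p110δ, the catalytic subunit that predominates in lymphocytes. It averaged 594 ± 84.6 in Treg and 618 ± 225 in Tconv of fat, 452 ± 48.2 and 489 ± 56.7 in those of thymus, and 495 ± 230 and 595 ± 300 in those of lymph node. The groups overlapped in all 3 tissues, and changes between -0.21 and -0.01 did not pass the test (adjusted p between 0.935 and 0.996). Its 3 dimmer probe sets above the filter gave lower values in fat Treg than in fat Tconv, by -0.45, -0.48 and -0.86, so the Pik3cd probe sets disagree in fat.

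**Figure D3:**
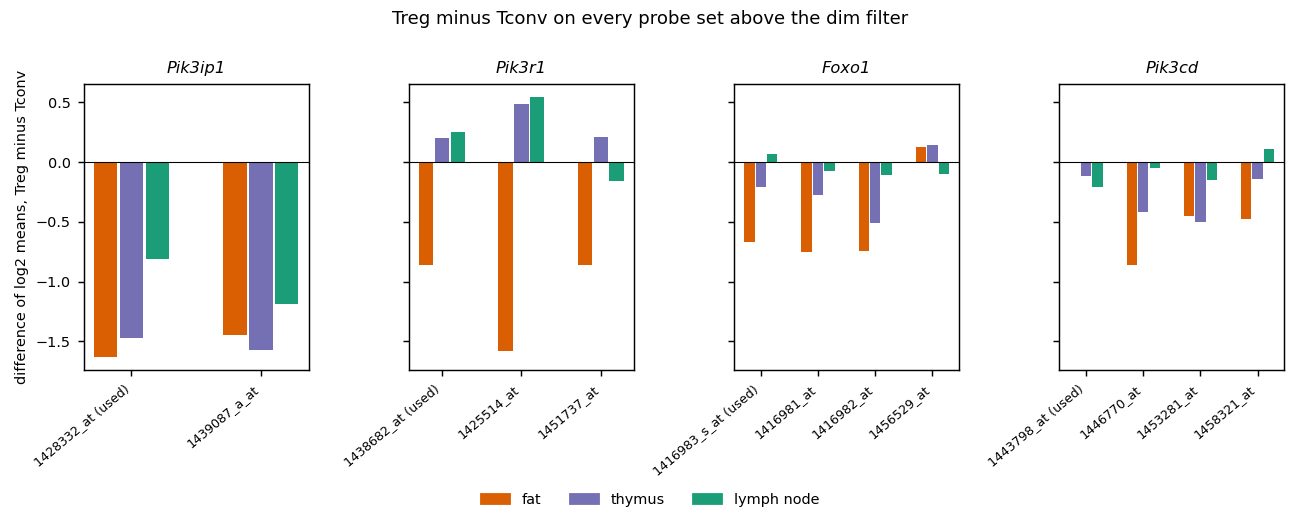
Difference of log2 means, Treg minus Tconv, in fat, thymus and lymph node for each probe set above the dim filter of Pik3ip1, Pik3r1, Foxo1 and Pik3cd, with the one used here first in its panel. The probe sets of Pik3ip1 run the same way in all tissues, and 1 of 4 probe sets of Foxo1 and of Pik3cd departs from the other 3 in fat.

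The phosphatase genes act against the pathway. Phlpp1 encodes a phosphatase that removes an activating phosphate from Akt. In fat it had 144, 102 and 111 in Treg, against 113, 90.9 and 105 in Tconv, and the groups overlapped. In thymus it had 170, 190 and 222 in Treg, against 91.4, 66.7 and 78.8 in Tconv. In lymph node it had 185, 213 and 257 in Treg, against 83.4, 81.9 and 84.1 in Tconv. Thymus and lymph node Treg lay well above their Tconv, which fat Treg did not. The changes were 0.20 ± 0.17 in fat (adjusted p = 0.569), 1.30 ± 0.17 in thymus (adjusted p = 7.39e-05) and 1.38 ± 0.17 in lymph node (adjusted p = 3.74e-05). Phlpp1 has 1 probe set, so no second one could be set beside it. Its Tconv means in thymus (79.0) and lymph node (83.1) lay not far above the dim filter of 65.5, so the sizes are approximate.

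From the highest down, the 6 levels of Phlpp1 were lymph node Treg (218 ± 36.0), thymus Treg (194 ± 26.2), fat Treg (119 ± 22.3), fat Tconv (103 ± 11.0), lymph node Tconv (83.1 ± 1.12) and thymus Tconv (79.0 ± 12.4). The arrays of fat Treg lay below those of the other Treg groups. The arrays of fat Tconv lay above those of lymph node Tconv, while 1 thymus Tconv array, at 91.4, lay above the lowest fat Tconv array.

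Inpp5d encodes SHIP1, a phosphatase that converts PIP3 to another lipid. It had 418, 434 and 480 in Treg of fat, against 359, 373 and 311 in Tconv of fat, without overlap. Its change of 0.36 ± 0.18 did not pass the test (adjusted p = 0.247, and 0.0407 with the pair as a block). In thymus it averaged 308 ± 25.7 in Treg and 301 ± 32.8 in Tconv, and in lymph node 419 ± 111 in Treg and 331 ± 57.8 in Tconv, with overlap in both tissues. Its other probe set overlapped between the groups in all 3 tissues.

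Akt1 and Akt2 encode the kinases at the centre of the pathway. Akt1 had 320, 370 and 316 in Treg of fat, against 278, 249 and 244 in Tconv of fat. These groups did not overlap, but the change of 0.38 ± 0.16 did not pass the test (adjusted p = 0.141). The other Akt1 probe set above the filter gave 0.08 in fat, with overlap. Akt1 changes were -0.004 ± 0.16 in thymus and -0.08 ± 0.16 in lymph node. Akt2 averaged 320 ± 21.2 in Treg and 360 ± 21.9 in Tconv of fat, and its changes of -0.17 in fat, -0.13 in thymus and -0.03 in lymph node did not pass (95% interval in fat -0.44 to 0.10). Its other probe sets above the filter gave -0.16 and 0.14 in fat, both with overlap.

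Foxo1 encodes the Foxo factor best known in T cells, where it drives genes of homing to lymphoid tissue. In fat it had 1167, 912 and 896 in Treg, against 1348, 1817 and 1567 in Tconv, without overlap. In thymus it had 1476, 2046 and 2102 in Treg, against 1464, 2825 and 2387 in Tconv, with overlap. In lymph node it had 3313, 3538 and 3226 in Treg, against 3374, 3301 and 2941 in Tconv, also with overlap. The change was -0.67 ± 0.21 in fat (adjusted p = 0.0406), -0.21 ± 0.21 in thymus (adjusted p = 0.737) and 0.07 ± 0.21 in lymph node (adjusted p = 0.973).

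The fat call of Foxo1 did not hold on the deposited scale (adjusted p = 0.0906), with arrays centred on their medians (0.112) or without the dim filter (0.0502), and its adjusted p was 0.00518 with the pair as a block. It was also lost without fat Treg replicate 2 (0.129) or 3 (0.146) and without fat Tconv replicate 2 (0.166) or 3 (0.102). The pairs gave -0.21, -0.995 and -0.81. Both other bright probe sets of Foxo1 gave -0.75 and -0.74 in fat, and a dim one gave 0.12. Its levels ran from fat Treg (991.5 ± 152) through fat Tconv (1577 ± 235), thymus Treg (1875 ± 346), thymus Tconv (2225 ± 695) and lymph node Tconv (3205 ± 232) to lymph node Treg (3359 ± 161), with gaps only above fat Treg and below lymph node Tconv.

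Foxo3 encodes a second Foxo factor with overlapping targets. It averaged 768 ± 136 in Treg and 1003 ± 250 in Tconv of fat, 693 ± 115 and 643 ± 101 in those of thymus, and 750 ± 122 and 731 ± 127 in those of lymph node. The groups overlapped in all 3 tissues and the largest change, -0.37 ± 0.20 in fat, did not pass the test (adjusted p = 0.316).

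The next comparison asks whether the Treg effect in fat differs from that in lymph node. Of the 9 genes, 0 were called for a higher and 1 for a lower effect in fat, where 2.46% of all genes were called higher and 2.88% lower. Phlpp1 was the one called: its effect in fat minus that in lymph node was -1.18 ± 0.24 (adjusted p = 0.00453). For Pik3r1 the difference was -1.11 ± 0.35 (adjusted p = 0.0848, and 0.0286 with the pair as a block), for Pik3ip1 -0.82 ± 0.31 (0.178, and 0.00885 with the block) and for Foxo1 -0.74 ± 0.29 (0.21, and 0.0365 with the block). So 4 of the 9 were called lower with the block, and the same 4 had an unadjusted p under 0.05 without it. Without fat Tconv replicate 1 the adjusted p of Pik3ip1 was 0.0469, and without fat Tconv replicate 2 that of Pik3r1 was 0.00676. The other 5 genes had differences between -0.41 for Foxo3 and 0.46 for Akt1, none of which passed.

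The Treg effect in thymus minus that in lymph node was called for 0 of the 9 genes, where 0.351% of all genes were called in either direction. One gene, Pik3ip1, had an unadjusted p under 0.05 (-0.67 ± 0.31, adjusted p = 0.853), and 0 were called with the pair as a block. For Phlpp1 the difference was -0.08, with a 95% interval from -0.58 to 0.42.

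The last comparisons set cells of fat against cells of the same kind from lymph node. Pik3ip1 and Foxo1 were lower in fat in both Treg and Tconv, and Pik3r1 and Phlpp1 were lower in fat Treg. Of the 9 genes, 0 were higher and 4 lower in fat Treg than in lymph node Treg, where 16.1% of all genes were called higher and 19.3% lower. In Tconv, 0 were higher and 2 lower, where 11.0% of all genes were called higher and 12.3% lower. The median change of the 9 genes was -0.20 in Treg and 0.08 in Tconv, beside medians of all genes of -0.01 and -0.04. Unadjusted p-values under 0.05 numbered 5 in Treg, with Akt1 added, and 3 in Tconv, with Foxo3 added. These comparisons use the same fat and lymph node arrays as those above. In bulk samples, fewer cells of a type and less RNA per cell cannot be told apart.

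**Figure D4:**
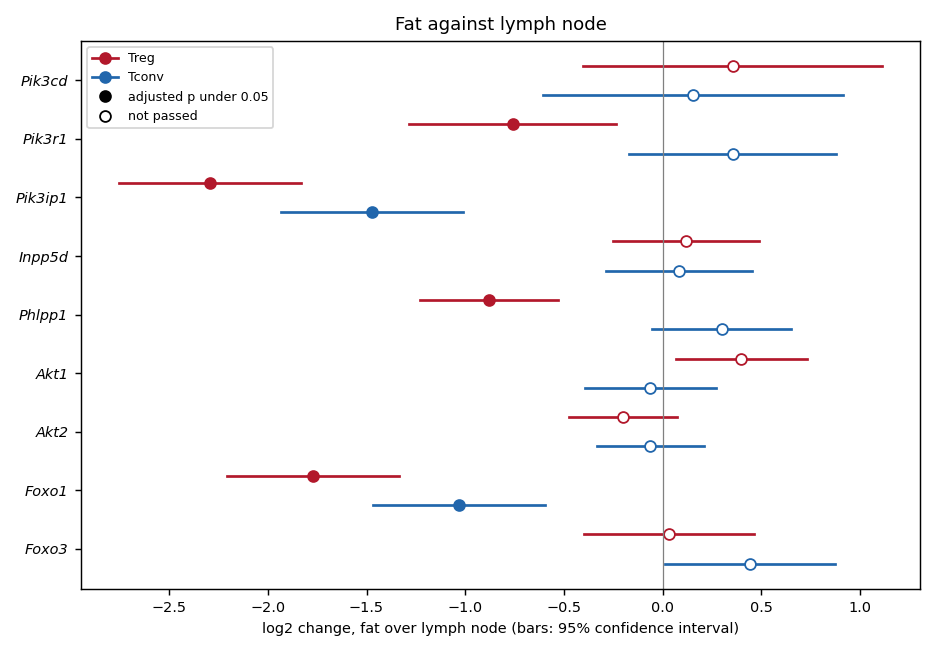
Log2 change of fat over lymph node with its 95% confidence interval for each gene, in Treg and in Tconv (filled points: adjusted p under 0.05). Pik3ip1 and Foxo1 lie left of 0 in both, and Phlpp1 lies at -0.88 in Treg and 0.30 in Tconv.

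Pik3ip1 fell by 2.29 on the log2 scale in fat Treg relative to lymph node Treg (SE 0.22, adjusted p = 3.78e-07), which makes it 4.9-fold lower, and by 1.47 in fat Tconv relative to lymph node Tconv (SE 0.22, adjusted p = 0.000102). Foxo1 fell by 1.77 in Treg (SE 0.21, adjusted p = 4.01e-06) and by 1.03 in Tconv (SE 0.21, adjusted p = 0.0015). For both genes the 3 fat arrays lay below the 3 lymph node arrays in Treg and in Tconv. Within blocks of neighbouring array file numbers, each of which held both tissues, Pik3ip1 ran from -2.83 to -1.92 in Treg and from -2.05 to -0.74 in Tconv. Foxo1 ran from -1.96 to -1.47 in Treg and from -1.13 to -0.86 in Tconv. The other probe set of Pik3ip1 gave -1.86 and -1.61, and both bright probe sets of Foxo1 gave -1.65 and -1.70 in Treg. The dim probe set of Foxo1 departed from these, at 0.26 in Treg without overlap and 0.04 in Tconv with overlap.

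Phlpp1 fell by 0.88 in fat Treg relative to lymph node Treg (SE 0.17, adjusted p = 0.00051), and its change of 0.30 ± 0.17 in Tconv did not pass (adjusted p = 0.22). Pik3r1 changed by -0.76 ± 0.25 in Treg (adjusted p = 0.0247) and by 0.36 ± 0.25 in Tconv (adjusted p = 0.342). Both other Pik3r1 probe sets above the filter gave -0.07 and -0.02 in Treg, with overlap, so the probe sets disagree there. The Treg value of Pik3r1 was -0.41 on the deposited scale (adjusted p = 0.188) and -0.33 over the mean of its probe sets (adjusted p = 0.153), and its call was lost without fat Treg replicate 1 (0.102) or lymph node Treg replicate 1 (0.0544), 2 (0.0537) or 3 (0.0603). In Tconv the second brightest Pik3r1 probe set was higher in fat by 2.06 without overlap, against 0.36 on the one used, so they disagree on size in Tconv. Without fat Tconv replicate 2 the Pik3r1 change in Tconv was 0.69 (adjusted p = 0.0316).

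Akt1 was 0.40 ± 0.16 higher in fat Treg than in lymph node Treg without overlap, which did not pass the test (adjusted p = 0.0571, and 0.0191 with the block of array file numbers). The other Akt1 probe set above the filter gave 0.17 there, without overlap. Foxo3 had 1292, 854 and 862 in fat Tconv, against 587, 781 and 827 in lymph node Tconv, without overlap, and its change of 0.44 ± 0.20 did not pass (adjusted p = 0.133). The other Foxo3 probe set above the filter gave 0.20 in Tconv, with overlap. Inpp5d, Pik3cd and Akt2 overlapped between the tissues in both cell types. The Akt2 change in Treg was -0.20 ± 0.13 (adjusted p = 0.241), and -0.39 with arrays centred on their medians (adjusted p = 0.0172). For Pik3cd in Treg the probe set used gave 0.35 and the 3 dimmer ones gave -0.37, -0.51 and -1.05.

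Fat cells also carried other transcripts that moved with the tissue. The 16 immediate early and stress genes measured are known to respond to tissue digestion as well as to activation. Fosb, Junb, Atf3, Ier3 and Hspa1a of these lay below the dim filter in every thymus and lymph node group, so they passed it only through fat, and no count of called genes is given. The summed intensity of all 16 lay between 62170 and 67770 in fat Treg and between 16810 and 26070 in lymph node Treg. It lay between 53670 and 56270 in fat Tconv and between 15400 and 20740 in lymph node Tconv. Between the fat groups, the sum was higher in Treg, and single genes went in both directions.

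Markers of other cell types are likewise given by their sums over all those measured, since several passed the filter only through fat. The sum of 13 macrophage and monocyte markers lay between 1614 and 5701 in fat Treg, between 1040 and 3497 in fat Tconv, between 861 and 1120 in lymph node Treg and between 786 and 1003 in lymph node Tconv. Cd68, Itgam and C1qc lay below the dim filter in both fat groups. Of the 10 tested, which lay above the filter in both fat groups, 5 were higher in fat Treg than in fat Tconv with the pair as a block, and 0 passed without it. For that comparison the block called 2828 of the 12258 genes. The sum of 8 dendritic cell and MHC class II markers lay between 1925 and 3170 in fat Treg. In fat Tconv it lay between 1358 and 2124, in lymph node Treg between 1599 and 1949 and in lymph node Tconv between 1211 and 2300. Of the 7 tested, 1 was higher in fat Treg than in fat Tconv (all genes 6.87%), and 3 with the block. The sum of 10 stromal and endothelial markers lay between 2563 and 7064 in fat Treg, between 2462 and 5319 in fat Tconv, between 423 and 490 in lymph node Treg and between 438 and 507 in lymph node Tconv. Of 6 adipocyte markers measured, Adipoq, Lep, Cidec and Lipe did not pass the filter, which reads the group mean on the log2 scale, while Fabp4 passed it only through fat. The mean intensity of Adipoq was 74.0 in fat Treg and 43.4 in fat Tconv, and no more than 15.8 in either lymph node group. The adipocyte sum lay between 1992 and 2743 in fat Treg, between 1608 and 2856 in fat Tconv, between 213.5 and 259 in lymph node Treg and between 215 and 241.5 in lymph node Tconv. The sum of 8 NK, CD8 and cytotoxic markers was lower in fat Treg, between 2066 and 3198, than in fat Tconv, between 4948 and 5443. It lay between 1158 and 1558 in lymph node Treg and between 1124 and 1220 in lymph node Tconv. In thymus it lay between 2392 and 8414 in Treg and between 1448 and 2119 in Tconv. Between 4 and 6 of the 8 lay above the filter in each group. Cd8a, the gene of a marker excluded in the sort, lay above it in all 6 groups, with means between 90.7 and 161. Ncr1, a defining gene of NK cells, lay below the filter in all 6 groups.

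The sum of 6 B cell markers lay between 502 and 596 in fat Treg and between 633 and 747 in fat Tconv. It lay between 1061 and 1510 in lymph node Treg and between 805 and 996 in lymph node Tconv. In each fat and lymph node group 5 of the 6 lay above the filter, while Cd79a lay below it in all 6 groups. Of the 5 tested, 2 were higher and 0 lower in lymph node Treg than in lymph node Tconv (all genes 3.25% and 1.33%). In fat against lymph node, 0 were higher and 3 lower in Treg (16.1% and 19.3%), and 0 and 1 in Tconv (11.0% and 12.3%). Between the fat groups, 0 were higher and 1 lower in Treg (6.87% and 5.89%). The sum of 7 immature thymocyte markers lay between 3511 and 9435 in thymus Treg and between 3203 and 5957 in thymus Tconv. It lay between 1083 and 1594 in fat Treg and between 1119 and 1222 in fat Tconv, and between 1688 and 1800 in lymph node Treg and between 1659 and 2087 in lymph node Tconv. The part of these transcripts in the differences between Treg and Tconv and between fat and lymph node was not tested.

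Other genes of the pathway were read from 6 lists of 108 genes, 95 of which were tested. In Treg against Tconv, 7 were higher and 12 lower in fat (all genes 6.87% and 5.89%), 8 and 6 in thymus (3.38% and 2.11%), and 6 and 5 in lymph node (3.25% and 1.33%). In fat against lymph node, 16 were higher and 18 lower in Treg (all genes 16.1% and 19.3%), and 19 and 10 in Tconv (11.0% and 12.3%). The Treg counts of fat against lymph node lie near the share of all genes. The Treg effect in fat minus that in lymph node was higher for 2 and lower for 8 (2.46% and 2.88%). The Foxo target list holds Foxp3 and Ctla4, which are also among the Treg markers read above as a check of the sort. It also holds Irs2 and Gadd45a, which passed the dim filter only through fat. Counts that include them are therefore no support for a change of the list. The list genes divided in both directions, and the median change of all 95 stayed between -0.05 and 0.06 in every comparison.

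Of 11 other PI3K genes, 0 were higher and 1 lower in fat Treg than in fat Tconv (all genes 6.87% and 5.89%). These encode subunits, except for Pik3ap1, which encodes an adaptor. The lower one was Pik3r5 (-0.60, adjusted p = 0.0473), which encodes a regulatory subunit of the class IB enzyme. Pik3r5 was also lower in lymph node Treg than in lymph node Tconv (-0.71, adjusted p = 0.0406), where Pik3r3, another regulatory subunit gene, was higher (0.82, adjusted p = 0.00802). Pik3r5 was higher in fat than in lymph node in both Treg (0.80) and Tconv (0.70), while Pik3r3 was lower in fat Treg (-0.63).

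Of 19 other phosphatases and Akt inhibitors, 0 were higher and 3 lower in fat Treg than in fat Tconv (all genes 6.87% and 5.89%). In fat against lymph node, 5 were higher and 3 lower in Treg (all genes 16.1% and 19.3%), and 5 higher and 2 lower in Tconv (11.0% and 12.3%). The higher ones were led in Treg by the lipid phosphatase gene Inppl1 (0.94) and the protein phosphatase subunit genes Ppp2cb (0.81) and Ppp2ca (0.68), and in Tconv by Inppl1 (1.26), Phlpp2 (1.18) and Ppp2cb (0.94). Trib2 encodes a pseudokinase, and some members of its family are known to bind Akt. It averaged 555 ± 37.2 in Treg and 2224 ± 359 in Tconv of fat (-1.99 ± 0.25, adjusted p = 1.88e-05), and 4593 ± 518 in Treg and 5797 ± 403 in Tconv of lymph node. Trib2 was lower in fat than in lymph node in Treg (-3.04, adjusted p = 5.66e-08) and in Tconv (-1.39, adjusted p = 0.000557), and its Treg effect in fat was lower than that in lymph node (-1.65, adjusted p = 0.00763).

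Phlpp2, the paralog of Phlpp1, averaged 143 ± 7.56 in Treg and 224 ± 15.2 in Tconv of fat (-0.64, adjusted p = 0.0194). Its Treg effect in fat was lower than that in lymph node by -1.10 (adjusted p = 0.0108), so Phlpp1 and Phlpp2 both had a lower Treg effect in fat. Inpp5b, an inositol phosphatase gene, was lower in Treg of fat (-0.85) and thymus (-0.80). Inpp5f, which encodes a further phosphoinositide phosphatase, was higher in Treg of thymus (1.17) and lymph node (1.34), and lower in fat Treg than in lymph node Treg (-1.38, adjusted p = 0.00013).

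Of 20 Akt partner kinases and genes of the mTOR arm, 2 were higher and 1 lower in fat Treg than in fat Tconv (all genes 6.87% and 5.89%). In both thymus and lymph node, 2 were lower in Treg (all genes 2.11% and 1.33%). Sgk1, a kinase gene related to Akt whose product also phosphorylates Foxo proteins, averaged 1067 ± 56.0 in Treg and 1856 ± 706 in Tconv of fat, 367 ± 90.9 and 1589 ± 479 in those of thymus, and 255 ± 154 and 1205 ± 126 in those of lymph node. Sgk1 was lower in Treg of thymus (-2.10, adjusted p = 0.000968) and lymph node (-2.40, adjusted p = 0.000252) and higher in fat Treg than in lymph node Treg (2.23, adjusted p = 8.95e-05). Sgk3, a further kinase of that family, was lower in fat than in lymph node in Treg (-1.55) and Tconv (-1.80). Rheb, which encodes the GTPase that activates mTORC1, was higher in fat Treg than in fat Tconv (0.60, adjusted p = 0.013) and than in lymph node Treg (0.89, adjusted p = 0.000234).

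Of 11 other Foxo family genes and direct regulators, 1 was higher and 0 lower in fat Treg than in fat Tconv (all genes 6.87% and 5.89%). The higher one was the 14-3-3 gene Ywhah (0.56, adjusted p = 0.0105), whose protein family holds phosphorylated Foxo in the cytoplasm. Sirt1, a deacetylase of Foxo proteins, was higher in fat than in lymph node in both Treg (0.86, adjusted p = 0.0209) and Tconv (1.24, adjusted p = 0.00327).

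Of 22 genes listed as Foxo targets, 4 were higher and 5 lower in fat Treg than in fat Tconv (all genes 6.87% and 5.89%), 2 were higher and 1 lower in thymus (3.38% and 2.11%), and 2 and 1 in lymph node (3.25% and 1.33%). The lower ones in fat Treg included S1pr1, the receptor for exit from lymphoid tissue, which averaged 243 ± 8.85 in Treg and 830.5 ± 51.6 in Tconv of fat (-1.77 ± 0.18, adjusted p = 2.05e-06). Ccr7, the homing receptor gene of lymphoid tissue, averaged 67.1 ± 15.3 in Treg and 248 ± 117 in Tconv of fat (-1.78 ± 0.36, adjusted p = 0.00206). Gadd45a, a stress response gene, averaged 51.2 ± 8.2 in Treg and 200 ± 32.4 in Tconv of fat (-1.96 ± 0.27). Fat Tconv was its only group above the dim filter, so the gene passed only through that group. Its size is therefore approximate, no p-value is given for it, and the count of 5 lower genes includes it. The higher ones were led by Foxp3 (4.21), a defining gene of Treg, and Ctla4 (2.27). They included Irs2 (2.99), which passed the dim filter only through fat, so its size is approximate.

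In fat against lymph node, 5 of the Foxo target genes were higher and 7 lower in Treg (all genes 16.1% and 19.3%), and 6 higher and 5 lower in Tconv (11.0% and 12.3%). Ccr7 was lower in fat in Treg (-2.65, adjusted p = 1.84e-05) and Tconv (-1.65, adjusted p = 0.00271), and so was Sesn3, a stress-responsive inhibitor of mTORC1 (-1.55 in Treg and -1.32 in Tconv). The Treg size of Ccr7 is approximate, since its fat Treg mean (67.1) lay near the dim filter. S1pr1 was lower in Treg (-1.35, adjusted p = 2.01e-05). Irs2, an adaptor of insulin receptor signalling that Foxo factors are known to drive in liver, went the other way. It averaged 521 ± 40.8 in fat Treg and 60.03 ± 9.89 in lymph node Treg (3.13 ± 0.17). Irs2 passed the dim filter only through fat, with 66.5 in fat Tconv and 43.9 in lymph node Tconv. The sizes of its changes are therefore approximate, no p-value is given for them, and the Treg count includes it. Its Treg effect in fat was higher than that in lymph node (2.53). Those of Gadd45a (-1.98, with both lymph node groups below the filter), Bcl2l11, a pro-apoptotic gene (-1.66), and S1pr1 (-1.09) were lower.

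**Figure D5:**
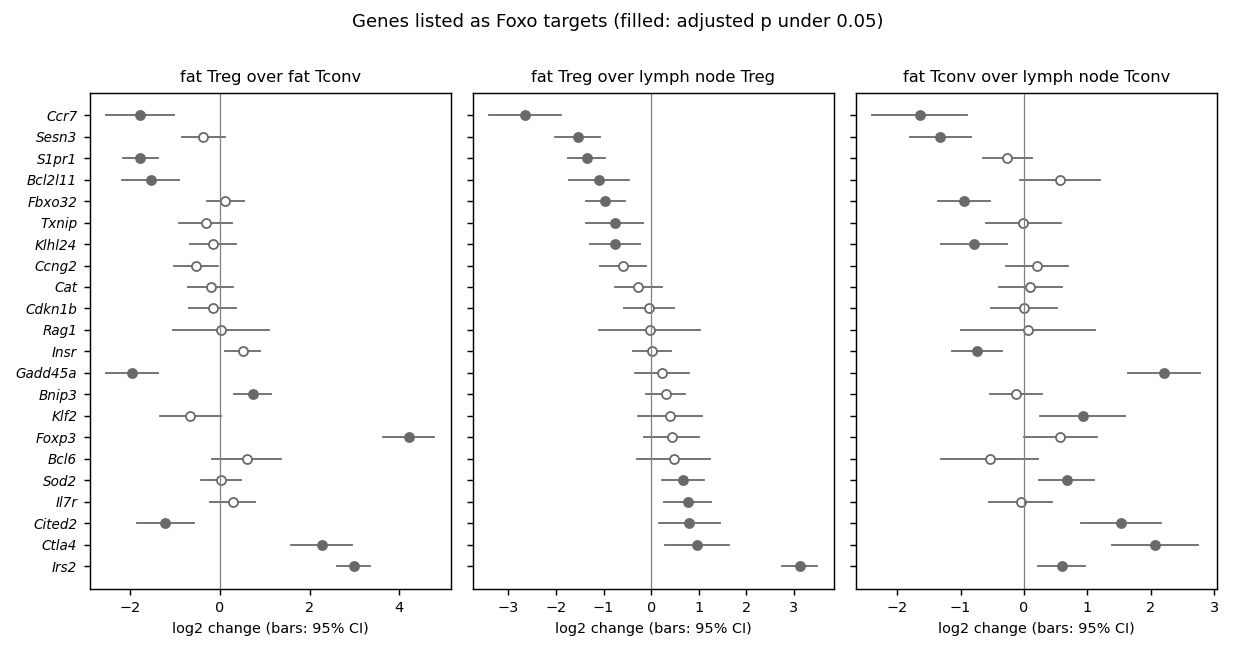
Log2 change with its 95% confidence interval of the 22 tested genes listed as Foxo targets, in fat Treg over fat Tconv, fat Treg over lymph node Treg and fat Tconv over lymph node Tconv (filled points: adjusted p under 0.05; each panel has its own scale). Ccr7 lies left of 0 in all 3 panels and Irs2 right of 0.

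Of 12 upstream receptors and adaptors, 0 were higher and 2 lower in fat Treg than in fat Tconv (all genes 6.87% and 5.89%). Cblb, a ubiquitin ligase gene that restrains PI3K recruitment to CD28, averaged 1406 ± 296 in Treg and 5373 ± 678 in Tconv of fat (-1.95 ± 0.20, adjusted p = 1.81e-06). In thymus Cblb went the other way, with 2246 ± 432 in Treg and 1351 ± 114 in Tconv (0.72 ± 0.20, adjusted p = 0.0413). The costimulatory receptor gene Cd28 was lower in Treg of fat (-0.58) and thymus (-0.76). Il2rb, a chain of the interleukin-2 receptor, was higher in Treg of thymus (1.80) and lymph node (2.53), and averaged 518 ± 63.8 in Treg and 438 ± 37.0 in Tconv of fat. The Tconv means of Il2rb in thymus (71.0) and lymph node (83.8) lay not far above the dim filter, so the sizes of its changes are approximate. Igf1r, the receptor gene of insulin-like growth factor, was higher in Treg of thymus (1.15) and lymph node (1.60) and averaged 258 ± 44.2 in Treg and 256.5 ± 30.9 in Tconv of fat. The Treg effect in fat was lower than that in lymph node for Il2rb (-2.29, adjusted p = 2.29e-06), Cblb (-2.21, adjusted p = 7.29e-05) and Igf1r (-1.60, adjusted p = 0.000257).

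The genes whose pattern over the 18 arrays was most like that of a member were found by Pearson's r of log2 intensity. For Pik3ip1 they were Ptpn6, Atp11b and Nsg2 (r = 0.957, 0.956 and 0.955), and for Foxo1 Zfp952, Zfp810 and Rabgap1l (0.954, 0.946 and 0.944). For Phlpp1 they were Cd83, Ccr6 and Fam89a (0.918, 0.908 and 0.908). Cd83 had means of 228 in Treg and 78.5 in Tconv of fat, 653 and 54.6 in those of thymus, and 977.5 and 120 in those of lymph node. Ccr6 had means of 270 in Treg and 260 in Tconv of fat, 1829 and 119 in those of thymus, and 1781 and 262 in those of lymph node. Fam89a had 117 in Treg and 118 in Tconv of fat. Among the members, Pik3ip1 and Foxo1 had r = 0.788, and Phlpp1 had r = -0.31 with Pik3ip1 and 0.10 with Foxo1. These values describe the 18 arrays, which share pools, tissues and sorts.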

How the data were processed

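The authors deposited linear intensity values per probe set for 18 arrays, made from RNA amplified in 2 rounds, with RMA in GenePattern per the series' design text (version not given in the sources used here). It is not stated which arrays that step combined. Here the intensities were quantile-normalized over all 18 arrays, and log2 values were fitted in limma 3.58.1 (R 4.3.3) with 1 coefficient per group and 7 contrasts. Genes were kept where at least 1 of the 6 group means lay above the median of the whole data set (intensity 65.5, log2 6.03), and p-values were Benjamini-Hochberg adjusted over the 12258 kept. The fit was tested on simulated data with independent noise, which held neither the pairing nor the tissue differences of these arrays. Arrays give no depth, and 3 per group limit the precision.

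The members and lists were chosen with earlier results of these data known. All 9 members are named, with at most the 3 largest called genes per list and direction. Of 108 pathway genes, 10 were not analysed here. Deviations of same-numbered Treg and Tconv arrays correlated in all 9 pairs (r from 0.355 to 0.661), so the numbers were taken to pair them. Of 45101 probe sets, 34945 had 1 symbol, 932 several, 64 were controls and the rest had none in the annotation used. Promoters are from RefSeq (all 9 members matched). Alternatives were other scales, no dim filter, the mean over probe sets, other priors, fewer arrays, blocks, and each array left out.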

Additional observations from a re-analysis of the deposited data

Results flagged for a closer look

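The Treg effect on Phlpp1 differed between tissues in a test of the difference itself: in fat minus lymph node it was -1.18 on the log2 scale (SE 0.24, limma adjusted p = 0.00453, and 0.00179 with the pair as a block). Treg were higher than Tconv in 3 of 3 pairs of both tissues, by 0.08 to 0.35 in fat and by 1.15 to 1.61 in lymph node. The size of the difference is approximate, since the lymph node Tconv mean (83.1) lay not far above the dim filter (65.5).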

How the results depend on the processing

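Of 927 values of single members under an alternative, 884 kept their side of the threshold, 26 lost the call and 17 gained it. Of those called in either setting, 0 reversed. Direction was not compared for values called in neither setting, and some of these changed sign. The Pik3cd change in fat Treg against lymph node Treg, for example, ran from -0.29 to 0.71. With the replicate block, the genes called were 2828 for Treg against Tconv in fat (1564 without it), 1645 in thymus (673), 1081 in lymph node (561), 1447 for the Treg effect in fat minus lymph node (655) and 137 for thymus minus lymph node (43); the members called for fat minus lymph node were 4, against 1 without it. The block changed no member call other than those given for Inpp5d, Pik3r1, Pik3ip1 and Foxo1, and the block of array file numbers none other than that of Akt1. A fit of the thymus arrays alone called 407 genes. On the deposited scale, where fat stood above lymph node by a median of 0.37 in Treg and 0.33 in Tconv, 7020 genes were called in Treg (4329 after joint normalization) and 5425 in Tconv (2860). It called 5 members in Tconv (Foxo3, Phlpp1 and Pik3r1 higher in fat), against 2 after joint normalization, and 1 member in lymph node Treg against Tconv, as did centring (1) and no dim filter (1). The mean over probe sets called 4 members for fat against lymph node Tconv (Foxo3 and Pik3r1 higher) and 2 for fat minus lymph node.

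Leaving out each array in turn, the genes called ranged from 1205 to 1676 for fat, from 462 to 1078 for thymus (the highest without thymus Treg replicate 3), from 399 to 446 for lymph node, from 3431 to 4177 for fat against lymph node Treg, from 2162 to 2855 for Tconv, from 514 to 749 for fat minus lymph node and from 19 to 67 for thymus minus lymph node (lowest without thymus Tconv replicate 2). Members called ranged from 1 to 2 for fat (3 with all arrays), 2 to 2 for thymus, 1 to 2 for lymph node, 3 to 4 for fat against lymph node Treg, 2 to 3 for Tconv, 1 to 2 for fat minus lymph node and 0 to 0 for thymus minus lymph node. The cause of these shifts was not tested.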
